A study of Mus musculus with 64 samples.

Results

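Among 6963 spotted features measured in 3T3-L1 adipocytes, 281 were taken as features that the drugs ASA and TGZ raised while TNF had left them near the vehicle level. 3T3-L1 is a mouse fibroblast line that is differentiated in culture into fat cells. They were chosen by the group means of the odd-numbered arrays alone, among the 6664 features whose identifier begins with MSK. TNF had to differ from vehicle by less than 0.15 in either direction, and TNF+ASA+TGZ had to exceed TNF by at least 0.35. All differences are in the deposited log units, read as log2 ratios of each culture (Cy5) over a pool of untreated differentiated 3T3-L1 cells (Cy3). Sizes and tests below come from the even-numbered arrays, which played no part in the choice.

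The study held 64 arrays, of which 22 are titled vehicle, 21 are titled TNF and as many are titled TNF+ASA+TGZ, here called the combination. The even-numbered arrays were 11 vehicle, 10 TNF and 10 combination arrays, and the odd-numbered ones were 11 of each. TNF (3 ng/ml, 48 h) was given to adipocytes at days 8 to 12 of differentiation. The TNF group then had TNF at 3 ng/ml for 24 h, the combination group 5 mM ASA with 10 µM TGZ for 24 h, and the vehicle group medium with 0.2% BSA for 24 h. The labels also list the first 48 h with TNF for the arrays titled vehicle, so it is not settled whether these cells had met TNF. They do not settle either whether TNF stayed in the medium beside ASA and TGZ, so adding the drugs and removing TNF cannot be told apart. ASA was given together with TGZ in every combination culture, so the effects of the drugs cannot be told apart from each other. The line is a single cultured line, and cultures were collected on 6 days from 5 passages that the labels do not tie to arrays. The p-values therefore measure the spread between these arrays.

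TNF is an inflammatory cytokine that signals in fat cells through stress kinases and the transcription factor NF-kB, represses many adipocyte genes and blunts the response to insulin. The abbreviation ASA was taken to mean aspirin, and TGZ to mean troglitazone. Aspirin inhibits the cyclooxygenases, and salicylates at high concentration also inhibit the kinase that activates NF-kB. Troglitazone is a thiazolidinedione, a ligand of the nuclear receptor PPARγ, which drives genes of fat storage in adipocytes. Identifiers name a plate and a well (MSK05l17 is plate 05, row l, column 17). The RefSeq gene table used here held 0 of the 6963 identifiers, so no member is given a gene, a function or a sequence, and adipocyte markers could not be looked up.

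In the even-numbered arrays all 281 members had a positive difference between the combination and TNF, as did 3855 of all 6963 features. Many members varied together, as described below, so their signs are not separate observations. Most differences were smaller than in the arrays that chose the members. The median difference was 0.50 in the odd-numbered arrays, which the rule fixed to be high, and 0.20 in the even-numbered ones, where it ran from 0.0040 to 1.47. The median over all 6963 features in the even-numbered arrays was 0.023. A difference past an adjusted p of 0.05 was found for 54 of the 281 members (19.2%), all 54 higher in the combination, by limma with Benjamini-Hochberg adjustment over all features. Among all features, 220 (3.16%) were higher in the combination by this test, and 8.62% differed in either direction. No member (0) was called lower, and 0 were lower at an unadjusted p under 0.05. With the replicate number as a block, 63 members and 396 of all features were called higher.

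**Figure D1:**
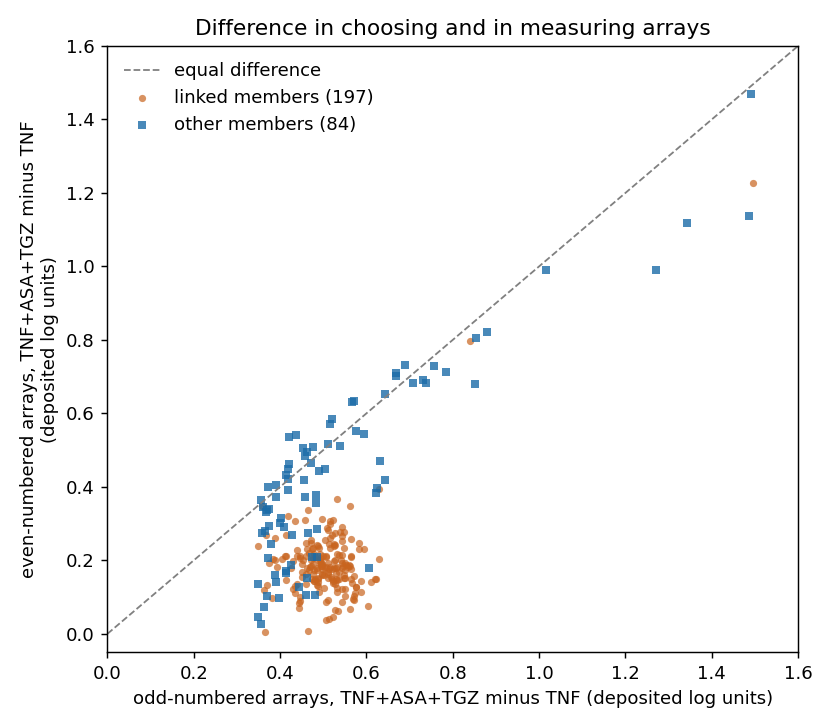
Each point is 1 of the 281 members, with the combination minus TNF in the odd-numbered arrays that chose it (x, deposited log units) against the same difference in the even-numbered arrays (y, deposited log units). The dashed line marks equal differences. Squares (84 other members) mostly follow the line, less closely below 0.5 and lying under it at the largest differences, while circles (197 linked members) mostly gather under 0.35 on y.

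The members were divided by how closely they varied together. After group means were removed, 197 members deviated together from array to array in the odd-numbered arrays, with r of at least 0.5 between a member and the median deviation of all members. These are called linked members. The other 84 had r from -0.42 to just under this limit. The division was made after seeing the data. Group means were removed before r was taken. The median profile is nevertheless that of members chosen by group differences in the same odd-numbered arrays. It carried over to the even-numbered arrays, where 194 of the 197 again reached r of 0.5 and 71 of the 84 again stayed below it. The median r over the 19306 pairs of linked members was 0.76 across the 31 even-numbered arrays, and it was 0.052 over pairs of the other members. These correlations share arrays and are a description. Vehicle array 6, where the median of the linked members lay at -1.29, is 1 of the 31 even-numbered arrays. How far the even-numbered r values rest on that array was not tested. Of all 6664 MSK features, 673 reached r of 0.5 with the same profile, and 197 of those were members.

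**Figure D2:**
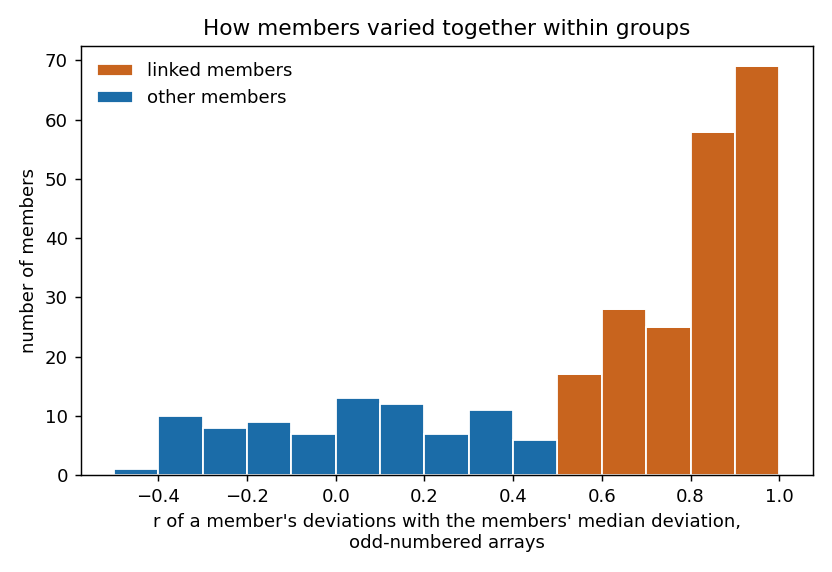
Histogram of the 281 members by r (x) between a member's deviations from its group means and the members' median deviation in the 33 odd-numbered arrays. The bars on the right are the 197 linked members, most of them above 0.8, and the bars on the left are the 84 other members, spread from -0.42 upwards.

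Most of what passed the test came from the other members. Of the 84, 52 (61.9%) were higher in the combination than in TNF in limma at an adjusted p under 0.05. Of the 197 linked members 2 passed, or 1.02%, against the 3.16% of all features. Blocking on the replicate number gave 5 linked members (2.54%), against 5.69% of all features. Leaving out vehicle array 6 gave 9 linked members (4.57%) against 4.38% of all features. Leaving out combination array 4 gave 5 (2.54%) against 2.97%, and leaving out array 12 gave 4 (2.03%) against 2.86%. In numbers 12 upwards alone it was 11 (5.58%) against 1.67%, so the linked share lay above that of all features there and without vehicle array 6, and below it in the other settings run at this limit on r. With a limit of 0.3 on r, 9 of 214 linked members were called, a higher share than the 3.16% of all features. The other members kept a median of 90.3% of their odd-numbered difference, at 0.40 in the even-numbered arrays and 0.46 in the odd-numbered ones. With a limit of 0.7 on r in place of 0.5, the 129 members left as other had medians of 0.28 and 0.48. The linked members kept 36.4%, at 0.18 after 0.51. Most other members (53 of 84) lay between 0.35 and 0.5 in the odd-numbered arrays, where 22 of the 53 and 0 of 91 linked members were called, and those 53 kept a median of 77.1%. Between 0.5 and 0.7, 17 of 18 other members and 0 of 104 linked members were called. At 0.7 and above the numbers were 13 of 13 and 2 of 2. A difference of at least 0.35 was reached again by 51 of the 84 other members and by 4 of the 197 linked members. Among all 6963 features, 197 reached it in the even-numbered arrays.

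The level of the linked members depended on the array. Their median on an array ran from -0.23 to 0.66 over the 10 even-numbered combination arrays, with a middle value of 0.31, and from -0.13 to 0.28 over the 10 even-numbered TNF arrays, with 0.085. Combination arrays 4 and 10 lay below every even-numbered TNF array, at -0.23 and -0.20, while array 8 reached 0.66 and array 14 reached 0.53. Only 5 of these 10 combination arrays lay above the highest TNF array. In the odd-numbered arrays, which chose the members, combination array 13 reached 1.27 and array 1 reached 0.93, while array 7 lay at -0.14. Vehicle array 6 stood apart at -1.29, where the next lowest even-numbered vehicle array lay at -0.16. It was the lowest even-numbered vehicle array for 187 of the 197 linked members, for 36 of the 84 other members and for 33.8% of all features.

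For the other members the groups did not overlap in this measure. Their median on an array ran from 0.32 to 0.57 over the even-numbered combination arrays and from -0.060 to 0.075 over the TNF arrays, so that 10 of 10 combination arrays lay above the highest TNF array. Combination arrays 4 and 10, lowest for the linked members, had 0.395 and 0.32. Vehicle arrays ran from -0.205, again array 6, to 0.11. These medians carry no test, because the members were chosen for this difference and were divided after seeing the data.

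**Figure D3:**
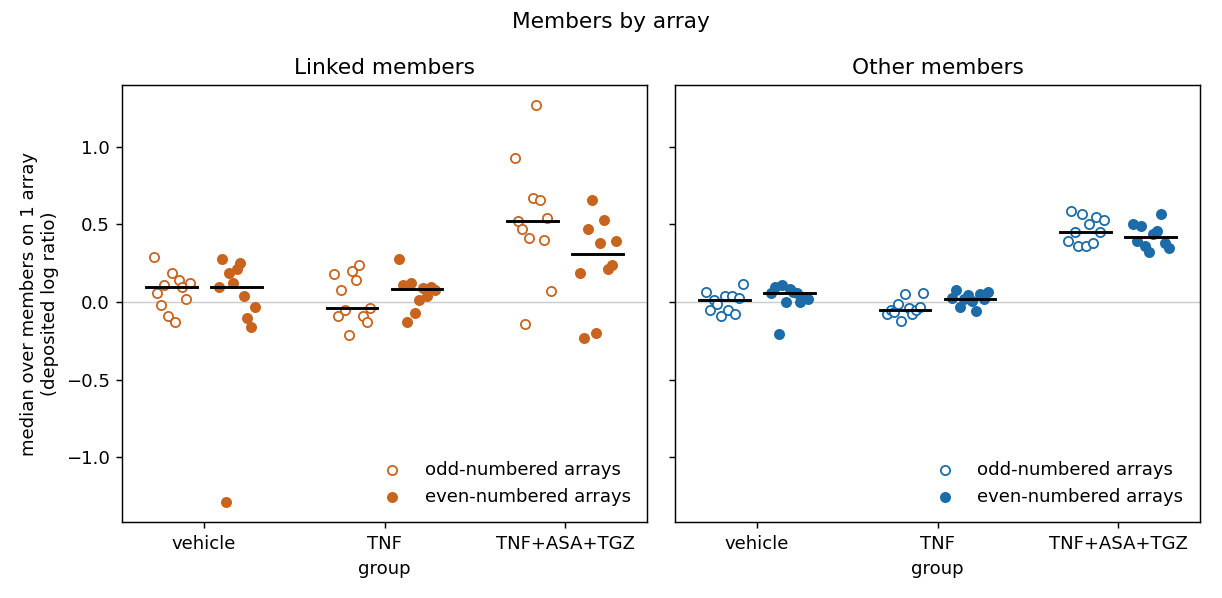
Median deposited log ratio of the 197 linked members (left) and of the 84 other members (right) on each of the 64 arrays (y), by group (x). Open points are odd-numbered arrays, filled points even-numbered arrays, and bars the median over arrays. The combination arrays spread from -0.23 to 1.27 on the left and from 0.32 to 0.585 on the right, and vehicle array 6 lies at -1.29 on the left.

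Linked members varied more alike within related well rows, without being gathered in them. Of their pairs, 26.2% lay in the same well row or in rows a multiple of 4 apart, against 25.1% of the pairs of all MSK features. Pairs in the same well row or in rows a multiple of 4 apart (5062 pairs) had a median r of 0.83 in the even-numbered arrays, and the other 14244 pairs 0.73. Rows d, h, l and p held 14.2% of the linked members, 28.6% of the other members and 22.8% of all MSK features. Members came from all 26 MSK plates, with 6 to 16 on a plate. The part of printing or hybridization in the shared variation was not tested.

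The largest differences stood clear of TNF on most arrays. MSK05l17 had the largest, with values from -0.57 to 0.55 (median 0.265) in the 10 TNF arrays and from 0.04 to 2.54 (median 1.785) in the 10 combination arrays. Array 8 was the lowest combination array and fell within the range of TNF, while the other 9 lay above it. The mean was 0.125 ± 0.377 (SD, n = 10) in TNF and 1.59 ± 0.883 (SD, n = 10) in the combination, so the combination exceeded TNF by 1.47 (SE 0.246; limma, adjusted p = 0.00014). It is 2.77-fold at base 2, an assumed base. The vehicle arrays ran from -0.66 to 0.58 and overlapped the TNF arrays throughout, with TNF minus vehicle at 0.066 (95% interval -0.42 to 0.55).

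MSK30c6, one of the linked members, ran from -0.49 to 0.64 in TNF and from 0.39 to 2.02 in the combination, with medians of 0.030 and 1.32. Combination arrays 4 (0.39) and 10 (0.47) fell within the TNF range, and the other 8 lay above it. The combination exceeded TNF by 1.23 (SE 0.149; limma, adjusted p = 1.87e-06). MSK43e9 differed by 1.14 (SE 0.144), with its lowest combination value, 0.56, on array 4. MSK19l19 differed by 1.12 (SE 0.172), also lowest on combination array 4, at 0.33. For these features 8 of 10 combination arrays lay above the highest TNF array and 10 of 10 above the TNF mean.

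MSK42i22 and MSK16j11 both differed by 0.99 (SE 0.149 and 0.153). MSK42i22 ran from -0.67 to 0.49 in TNF and from 0.30 to 1.33 in the combination. MSK16j11 ran from -0.30 to 0.78 in TNF and from 0.40 to 1.64 in the combination. The groups overlapped on 2 combination arrays for each. Adjusted p-values in limma for the features from MSK43e9 to MSK16j11 lay between 3.23e-06 and 4.32e-05. Their differences between TNF and vehicle lay between -0.11 and 0.10, with adjusted p of 0.553 or more in limma.

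**Figure D4:**
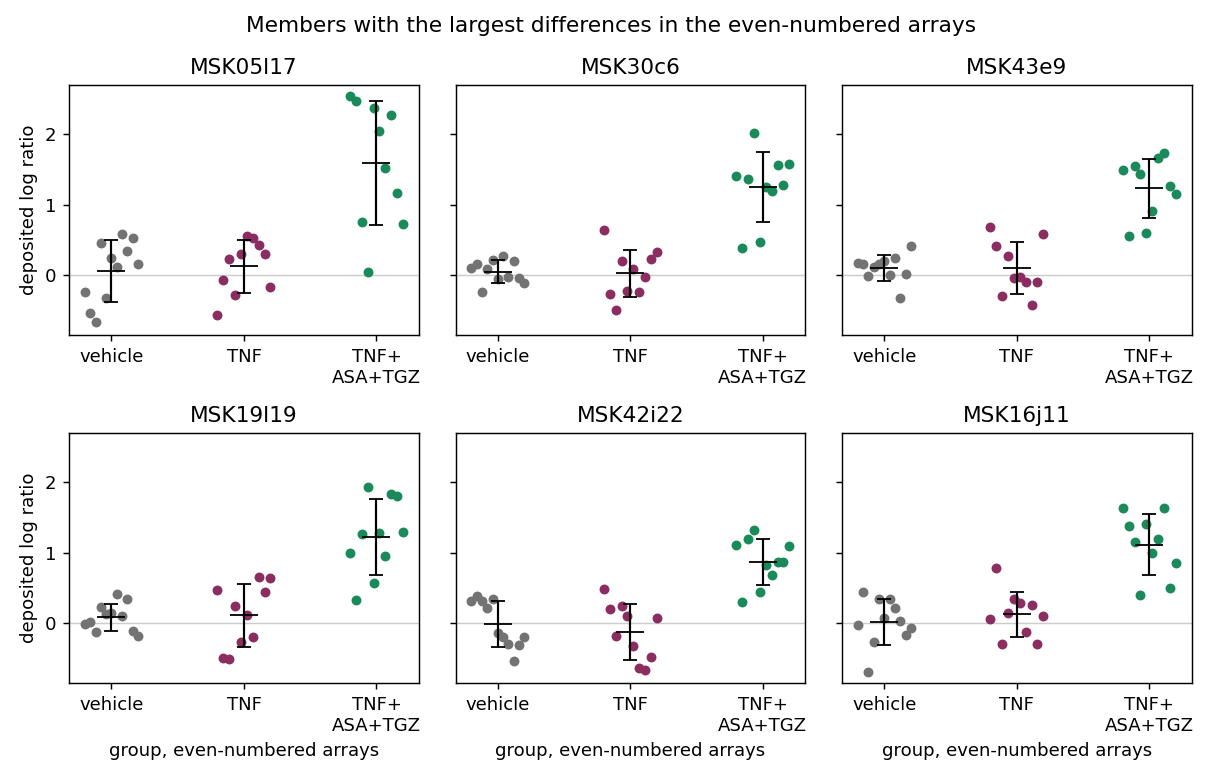
Deposited log ratios (y) of the members with the 6 largest differences on each even-numbered array, by group (x: 11 vehicle, 10 TNF, 10 combination arrays). Points are arrays, and the bars are the mean ± SD. Vehicle and TNF arrays overlap around 0, and most combination arrays lie above both, with 0.04 (array 8) the lowest for MSK05l17.

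These strong members did not all vary alike within groups. MSK05l17 was highest in combination array 2 and lowest in array 8, while MSK30c6 was highest in array 8 and lowest in array 4. The r between their deviations was -0.55 over the 31 even-numbered arrays and -0.42 over the 33 odd-numbered ones. MSK05l17 went with MSK16j11 (r = 0.45 and 0.61), and MSK30c6 with MSK19l19 (r = 0.83 and 0.68). MSK43e9 went with MSK30c6 (r = 0.60 and 0.39) and with MSK42i22 (r = 0.63 and 0.52). The r of MSK05l17 with MSK43e9, MSK19l19 and MSK42i22 was negative in both sets of arrays. Among the other members, 22 of 3486 pairs had r of at least 0.7 in both sets of arrays, and 18 members were in such a pair. In linked members the same was true of 44.3% of pairs.

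Those pairs held 2 sets of 4 members in which every pair was tied. MSK03i6, MSK06e13, MSK10a4 and MSK13e24 had r from 0.71 to 0.92 in the even-numbered arrays, and their differences between the combination and TNF ran from 0.46 to 0.81. MSK06e13, the smallest, did not pass the test (adjusted p = 0.0707 in limma), and the adjusted p of the other 3 lay between 0.00962 and 0.016. MSK19m13, MSK31j22, MSK40b3 and MSK43f14 had r from 0.90 to 0.93, with differences from 0.68 to 0.82, all 4 past the test (adjusted p from 0.00462 to 0.0248 in limma). The sets were picked after their values were seen. Whether the features of a set carry the same transcript is not given in the sources used here.

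In 7 of the 281 members every even-numbered combination array lay above every TNF array, as in 0.330% of all features. MSK22f1 and MSK24d6 had the largest differences of the 7 and were picked after their values were seen. MSK22f1, a linked member, ran from -0.16 to 0.24 in TNF and from 0.50 to 1.32 in the combination, 0.80 apart in the mean (SE 0.104; limma, adjusted p = 5.12e-06). MSK24d6 ran from -0.36 to 0.04 in TNF and from 0.17 to 0.93 in the combination, 0.70 apart in the mean (SE 0.0989; limma, adjusted p = 1.43e-05). Neither had the size of MSK05l17, but their values within a group lay closer together, with an SD in the combination of 0.287 and 0.222.

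At the other end, MSK07c16 and MSK30l10 showed almost no difference between the combination and TNF in the even-numbered arrays, at 0.0040 (95% interval -0.47 to 0.48) and 0.0070 (95% interval -0.32 to 0.33). Both were linked members, with 0.36 and 0.47 in the odd-numbered arrays. MSK07c16 ran from 0 to 0.65 in TNF and from -0.12 to 0.81 in the combination, so that the groups lay over each other.

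TNF against vehicle was the side of the rule that asked for closeness. In the even-numbered arrays limma called 7 of the 281 members (2.49%) between TNF and vehicle at the same threshold, against 45.5% of all features. All 7 were among the 84 other members. None of the linked members (0 of 197) was called, with 2 at an unadjusted p under 0.05. The count was 4 without vehicle array 16. A missed threshold does not show equality. The 95% interval of the difference lay within 0.35 on either side of 0 for 99 of the 281 members, against 1869 of all 6963 features. Without vehicle array 6 this held for 215 members, and the count over all features without that array is not given here. The median difference of the linked members was 0.090, and it was -0.036 without vehicle array 6, -0.023 with arrays scaled to a common MAD (median absolute deviation), -0.046 after quantile normalization and -0.037 with array weights. That of the other members was 0.00064.

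Of these 7, 5 were lower under TNF, as 25.0% of all features were, and 2 were higher (20.5% of all features). They are named here after their values were seen. MSK40i19 ran from -0.25 to 0.67 in vehicle (median 0.14), from -0.66 to 0.04 in TNF (median -0.455) and from -0.82 to 0.84 in the combination (median 0.095). It fell by 0.47 under TNF (SE 0.133, adjusted p = 0.00526 in limma) and its combination mean exceeded its TNF mean by 0.43 (limma, adjusted p = 0.0413). MSK16a6, MSK07i17, MSK39m4 and MSK41k11 fell by 0.42, 0.37, 0.32 and 0.27 under TNF, and all were higher in the combination than in TNF, by 0.34 to 0.63. Both differences share the TNF arrays. Between the combination and vehicle, MSK40i19, MSK16a6 and MSK07i17 differed by -0.038, -0.023 and -0.030, and MSK39m4 by 0.18, none past the test (adjusted p of 0.254 or more in limma). MSK41k11 was 0.36 higher in the combination than in vehicle (limma, adjusted p = 0.00797).

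MSK39l13 and MSK29p19 were higher under TNF, by 0.48 and 0.33 (limma, adjusted p = 0.0358 and 0.0277). Neither passed between the combination and TNF, at 0.21 and 0.34 (limma, adjusted p = 0.583 and 0.0868). MSK39l13 was lowest in vehicle array 6, at -1.66. MSK07c16 had the largest TNF difference of all members, 0.50, and did not pass (adjusted p = 0.0761 in limma), with a vehicle SD of 0.911.

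**Figure D5:**
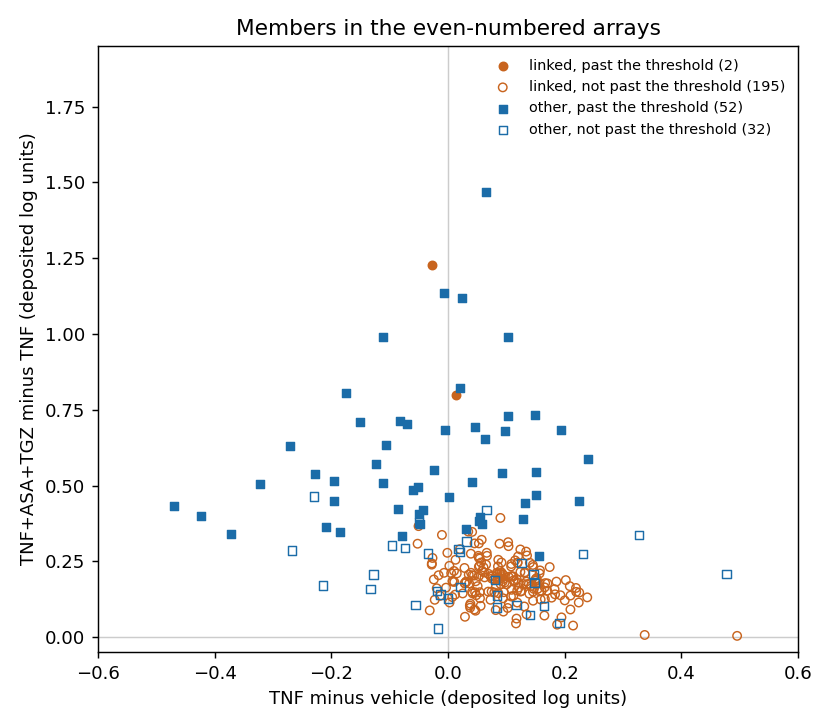
Each of the 281 members in the even-numbered arrays, with TNF minus vehicle (x) against the combination minus TNF (y), both in deposited log units and sharing the TNF arrays. Filled marks passed an adjusted p of 0.05 in limma between the combination and TNF (2 linked, 52 other members), and open marks did not. Linked members mostly gather between 0 and 0.3 on x and under 0.4 on y.

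The whole label, higher in the combination than in TNF and not called between TNF and vehicle, held for 49 of the 281 members (47 of them other members), against 2.08% of all features. By size alone, 39 members met the rule again, 35 of them other members. Exchanging the sets of arrays gave 74 features chosen in the even-numbered arrays, of which 60 (81.1%) were called higher in the odd-numbered ones in limma, where 8.39% of all features were. The 39 are the features chosen in both sets. Just inside the rule lay MSK19f2, at 0.35 in the odd-numbered arrays and 0.24 in the even-numbered ones, and just outside lay MSK39o2, at 0.346 and 0.12. For the limit on TNF minus vehicle, MSK03c15 lay inside at -0.149 and MSK13l17 outside at -0.15.

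The combination also exceeded vehicle in many members. Of the 281, 78 (27.8%) were higher in the combination than in vehicle in limma at an adjusted p under 0.05, against 17.6% of all features. None (0) was lower, against 1311 of all 6963 features. The 78 were 54 of the 84 other members (64.3%) and 24 of the 197 linked members (12.2%). The linked share lay below the 17.6% of all features. Of the 54 members called higher than TNF, 46 (85.2%) were also higher than vehicle, against 138 (62.7%) of the 220 features called higher than TNF in all. Both comparisons share the combination arrays. The count of 78 moved with single arrays. It rose to 123 members without combination array 4 and to 119 without combination array 10, and was lowest, at 60, without combination array 14. The median difference from vehicle was 0.37 for the other members and 0.29 for the linked members.

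A division of the arrays at number 11, known from an earlier look at these data and not named in the labels, was used to repeat the comparison. Between even numbers 2 and 10 (5 arrays of each group), 15 members were higher in the combination than in TNF, and 46 from 12 upwards. Of all features, 51 (0.73%) and 116 (1.67%) were called higher in the same sets of arrays. The count from 12 upwards was thus larger among all features too. Among the linked members it was 1 (0.51%) and 11 (5.58%), and among the other members 14 and 35. The median difference of the other members was 0.40 and 0.42 in these sets, and that of the linked members 0.11 and 0.26. Testing in limma whether the 2 sets of numbers differed in this respect called 0 of the 281 members and 0 of all features. At an unadjusted p under 0.05 it passed 7 members (2.49%) and 4.68% of all features.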

How the data were processed

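The deposited table holds values taken as log2 ratios, from the authors' processing of 64 arrays with 2 colours. For the log base, the background correction and the normalization, the step is not given in the sources used here; base 2 was assumed. The dyes in the labels make culture over pool the likely direction. If the ratio was turned, every higher is a lower. Each column is a sample accession, and groups come from the titles. Signal over background is unknown, so the number of arrays limits the precision.

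Members were found with the odd-numbered arrays. Group means of the 31 even-numbered arrays were fitted to all 6963 features with limma 3.58.1 in R 4.3.3 (lmFit, eBayes, no block). P-values are two-sided, adjusted by Benjamini-Hochberg over all features, and 0.05 was the threshold. Simulated data with known changes served to test the script. Odd- and even-numbered arrays may share collection days, reference RNA and the authors' normalization. Deviations of same-numbered arrays had r over 0.1 in 10 of 10 pairs of TNF and vehicle, 10 of 10 of combination and TNF, and 9 of 10 of combination and vehicle. Over all arrays this was 19, 18 and 17 of 21. The labels state no pairing, so the fit with the replicate number as a block is given beside it where a count moved by over 1.5 times.

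The named features are the members with the 6 largest and 2 smallest differences between combination and TNF, those with the 2 largest between TNF and vehicle, and those nearest the limits of the rule. Others are said to be picked after their values were seen. The members, lists and settings were chosen with earlier results of these data known. Figures were drawn with matplotlib 3.10.9.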

Additional observations from a re-analysis of the deposited data

How the results depend on the processing

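The 281 members became 256 to 315 when each odd-numbered array was left out of the choice. Members higher in the combination than in TNF (54) were 31 with a common MAD, 34 after quantile normalization, 15 in even numbers 2 to 10 and 30 at an adjusted p of 0.01; other members (52) were 29, 32, 14 and 28. Members with the whole label (49) were 30 with a common MAD, 15 in numbers 2 to 10 and 30 at 0.01. Linked members (2) were 5 with the replicate number as a block, 1 in numbers 2 to 10, 11 in numbers 12 upwards and 6 with array weights. Members differing between TNF and vehicle (7) were 4 with a common MAD, 0 in numbers 2 to 10 (limma), 12 with array weights and 3 at 0.01. Members higher in the combination than in vehicle (78) were 47 with a common MAD, 44 after quantile normalization, 39 and 127 in the lower and upper numbers, and 48 at 0.01. Members with a TNF interval within 0.35 of 0 (99) were 173 after quantile normalization, 15 in numbers 2 to 10 and 243 with array weights.

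Over all features, those higher in the combination than in TNF (220) were 83 with a common MAD, 94 after quantile normalization, 396 with the block, 51 and 116 in the lower and upper numbers, and 99 at 0.01. For TNF against vehicle (3169) they were 1784, 1877, 1349 and 1979 in the lower and upper numbers, and 1944 at 0.01. Features higher in the combination than in vehicle (1228) were 573 in numbers 2 to 10, 869 in numbers 12 upwards and 763 at 0.01. The common MAD left 952 of them, and quantile normalization 937. In numbers 12 upwards the count over all features thus fell from 1228 to 869, while that of members rose from 78 to 127. Fewer arrays enter the fits by number. The cause of the changes, by number or in the other settings, was not tested.

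Leaving out each even-numbered array gave 44 to 66 members higher than TNF (42 to 57 other, 2 to 9 linked), 4 to 9 differing between TNF and vehicle, 60 to 123 higher than vehicle, 41 to 62 with the whole label and 71 to 215 with a TNF interval within 0.35 of 0. Over all features it gave 173 to 305, 2924 to 3255 and 1114 to 1250. The replicate block changed no other count by over 1.5 times.

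The named features with the 6 largest differences kept their sign in all settings run, and passed in all but numbers 2 to 10 for MSK42i22 and MSK16j11. Uncalled values near 0 changed sign. MSK07c16 was at -0.048 with well-row means removed, -0.078 in numbers 2 to 10 and -0.053 to 0.050 with 1 array left out. MSK30l10 was at -0.11 in numbers 12 upwards, -0.012 with array weights and -0.068 to 0.060 with 1 array left out. MSK39l13 was at -0.066 in numbers 12 upwards. With r limits of 0.3 and 0.7 for linked members, 9 of 214 and 0 of 152 linked members were called in limma. Of the others, 45 of 67 and 54 of 129 were called, and of all features 3.16%. The even-numbered medians were 0.18 and 0.19 for linked members, and 0.44 and 0.28 for others. The r limits, the count of linked members apart and the choice without each odd-numbered array were added after seeing the data.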
